A study of Homo sapiens with 6 samples.

Results

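The BCL2 family decides whether a stressed cell opens its outer mitochondrial membrane and dies by apoptosis. Transcripts of 10 named members were followed in A375 cells, a long-established human line from a melanoma with mutant BRAF, after exposure to BMH-21. This compound blocks RNA polymerase I, which makes the long ribosomal RNA precursor in the nucleolus. The members were found by gene symbol, and all 10 had a row among the 25548 gene rows of the deposited expression table. They were the effectors BAX and BAK1, the BH3-only genes BBC3, PMAIP1, BCL2L11 and BID, and the pro-survival genes BCL2, BCL2L1, MCL1 and BCL2A1. The labels gave 6 samples of this line, all grown in DMEM with serum. In one group 3 samples received 1 µM BMH-21 for 6 h, and in the other 3 samples were controls with the solvent DMSO, which the titles place at 0 h. An effect of the drug and an effect of 6 h of further culture therefore cannot be told apart, and "with BMH-21" covers both.

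As background, the effector proteins BAX and BAK form pores in the mitochondrial outer membrane, through which cytochrome c escapes and sets off the caspases. Pro-survival proteins such as BCL2, BCL-XL and MCL1 hold the effectors in check by gripping a short helix called BH3. BH3-only proteins carry that helix and little else of the family fold, and they release or activate the effectors when a cell is damaged or starved of signals. Several of the genes, BBC3 and BAX among them, are known to be switched on by p53, which a blocked nucleolus stabilizes through free ribosomal proteins. Melanoma cells are known to lean on MCL1 and BCL-XL, and BCL2 and BCL2A1 are known targets of the pigment lineage factor MITF.

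The table held 3 columns per group in FPKM (fragment counts scaled to transcript length and library size, hence a level per length). Although titled as replicates, the columns behaved otherwise. In each group the first was midway between the other columns in 99.9% of the rows where all were above 0. It was read as the group's estimate and the other columns as its lower and upper bound, whose coverage is not stated in the sources used here. The values of single libraries, the spread between replicates and the sequencing depth were therefore unknown, and no difference below carries a p-value. Intervals that did not overlap between the groups are called separate. This word describes the deposited values and stands for no test over replicates. A value after ± is the half-width of a log2 difference, combined from the bounds of both groups. Of 10 melanocyte lineage markers 5 were at 1 FPKM or more, of which 2 were lower with separate intervals, 0 were higher and 3 overlapped, with a median log2 difference of -0.52. Over all genes at that level other than short RNAs, 3.58% were higher and 3.14% lower with separate intervals. The lower markers were MITF, whose intervals were only 0.0232 FPKM apart, and the calcium-binding protein gene S100B. S100B was at 28.7 FPKM in control and 17.8 FPKM with BMH-21. SOX10 was the highest, at 97.0 FPKM in control and 90.0 FPKM with BMH-21, whereas MLANA, PMEL, TYR, TYRP1 and DCT, which serve pigment production, were all under 1 FPKM in both groups. Of 4 keratinocyte markers the highest was KRT14, at 1.64 FPKM and 2.16 FPKM, and of 3 endothelial and 4 leukocyte markers none passed 0.161 FPKM. The fibroblast marker DCN was at 0.419 FPKM in control and 2.50 FPKM with BMH-21, with separate intervals. The other fibroblast markers overlapped. COL1A1 was at 0.598 FPKM and 0.459 FPKM, COL1A2 at 0.0993 FPKM and 0.0998 FPKM, and PDGFRA at 1.22 FPKM and 1.02 FPKM. The summed level of these 4 markers was 2.34 FPKM in control and 4.08 FPKM with BMH-21, a difference carried by DCN. The part of such transcripts in the results was not tested.

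With BMH-21, transcripts of BBC3, BAX and BAK1, all of which promote death, were higher than in control, and no pro-survival member stood apart. BBC3 was 5.37-fold, BAX 1.96-fold and BAK1 1.52-fold higher, each with separate intervals. PMAIP1 was at the edge, 1.40-fold higher with bounds that just overlapped. Genes that reached 1 FPKM in either group are called measured, and 9 members did. Of these, 3 were higher with separate intervals, 0 were lower and 6 overlapped. Over all 12758 measured genes other than short RNAs, 3.58% were higher and 3.14% lower with separate intervals, or 457 and 400 genes, a split that became 348 and 528 when the groups were scaled to an equal upper quartile. BBC3 was the 1 member at least 2-fold higher on the log2(FPKM + 1) scale and 0 were lower by as much, against 0.917% and 0.259% of all measured genes. The median log2 difference of the 9 was 0.31, beside 0.03 over all measured genes. This middle value was that of MCL1, whose intervals overlapped. The median depended on the minimum, at 0.14 over all 10 members with none and 0.47 over the members at 5 FPKM or more. BCL2A1 was the unmeasured member, and the 9 others were above 1 FPKM in both groups. In a bulk sample a change in every cell and a change in some of the cells cannot be told apart. The plot of levels shows all 10 members with their bounds.

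**Figure D1:**
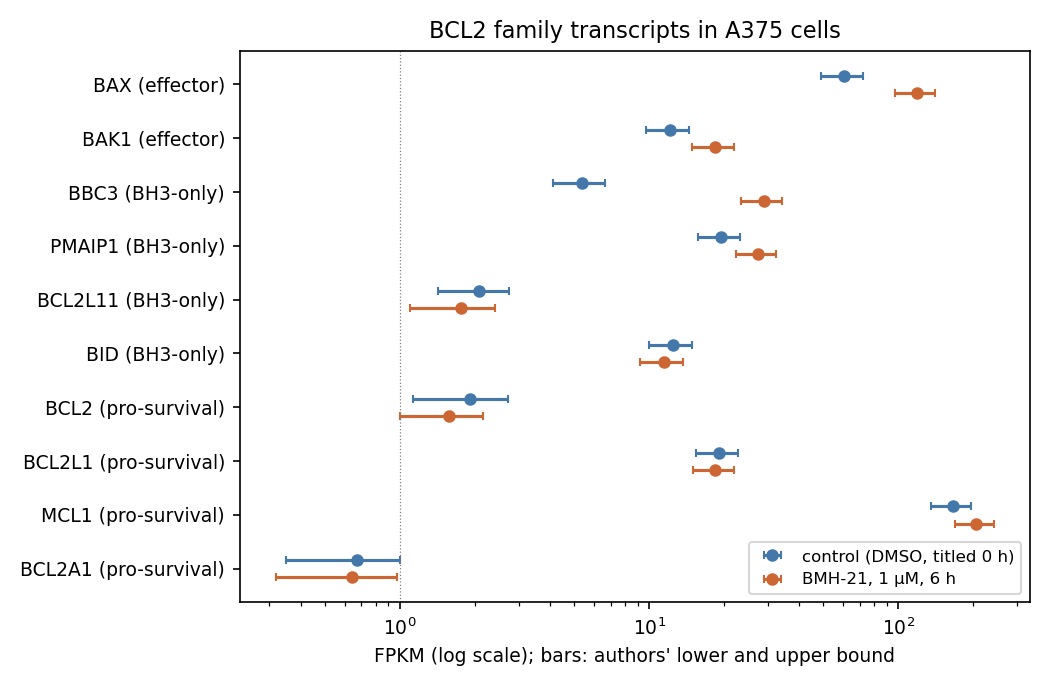
FPKM estimates of the 10 BCL2 family members on a log axis, with control in blue and BMH-21 in orange; bars run from the authors' lower to upper bound and the dotted line marks 1 FPKM. The bars are clear of each other for BAX, BAK1 and BBC3, overlap slightly for PMAIP1 and lie over each other for the other 6.

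Among the effectors, BAX was at 60.4 FPKM (bounds 48.8 to 72.0) in control and at 118 FPKM (bounds 97.1 to 140) with BMH-21. BAX encodes a protein that waits in the cytosol and moves to mitochondria when activated. The gap between the bounds of the groups was 25.2 FPKM. The log2 difference was 0.96 ± 0.38, which placed BAX 131st from the top among the measured genes. BAK1, whose protein sits in the mitochondrial membrane from the start, was at 12.1 FPKM (bounds 9.69 to 14.5) in control and at 18.3 FPKM (bounds 14.8 to 21.8) with BMH-21. Here the gap was only 0.355 FPKM, and the log2 difference was 0.56 ± 0.38. The separation of BAK1 was lost when the groups were scaled to an equal upper quartile, with a log2 difference of 0.50, or to an equal sum without short RNA rows, with 0.50 as well. BAX was the more abundant effector throughout, 5.0 times the BAK1 level in control and 6.46 times with BMH-21.

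Of the BH3-only genes, BBC3 stood furthest from control. It encodes PUMA, a BH3-only protein that binds every pro-survival member. BBC3 was at 5.36 FPKM (bounds 4.10 to 6.62) in control and at 28.8 FPKM (bounds 23.3 to 34.2) with BMH-21. The lower bound with BMH-21 was thus far above the upper bound in control. The log2 difference was 2.23 ± 0.39, the 15th from the top of all measured genes, and the ratio of 5.37 had a range of 3.95 to 7.29 from the bounds. PMAIP1 encodes NOXA, a BH3-only protein that mainly neutralizes MCL1 and the BCL2A1 protein. It was at 19.4 FPKM (bounds 15.7 to 23.2) in control and at 27.2 FPKM (bounds 22.3 to 32.2) with BMH-21. The bounds overlapped by 0.894 FPKM, although the log2 difference of 0.47 ± 0.37 was larger than its half-width, as was true of 7.19% of all measured genes on the higher side and 7.06% on the lower.

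The remaining BH3-only genes did not stand apart from control. BCL2L11 encodes BIM, a potent activator that ERK signalling marks for destruction. Its level was 2.08 FPKM (bounds 1.42 to 2.73) in control and 1.76 FPKM (bounds 1.10 to 2.41) with BMH-21, a ratio of 0.846 with a range of 0.508 to 1.41. BID, which caspase-8 cleaves to link death receptors to mitochondria, was at 12.4 FPKM (bounds 9.99 to 14.9) and at 11.5 FPKM (bounds 9.19 to 13.7). Its ratio was 0.921 with a range of 0.695 to 1.22. Both genes had overlapping intervals and differences within their half-widths, so neither was placed above or below control. Within the summed level of the BH3-only members alone (BBC3, PMAIP1, BID and BCL2L11), BBC3 made up 13.6% in control and 41.6% with BMH-21. PMAIP1 made up 49.4% and 39.4%, BID 31.6% and 16.5% and BCL2L11 5.28% and 2.54%. Among these BH3-only members PMAIP1 was the most abundant transcript in control. With BMH-21, BBC3 and PMAIP1 were close to each other, at levels whose bounds overlapped. The BH3-only gene BAD, outside the members, had higher estimates than both, at 36.1 FPKM in control and 30.6 FPKM with BMH-21.

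All intervals of the pro-survival genes overlapped. MCL1 encodes a short-lived guard protein. It was the most abundant member in both groups, at 165 FPKM (bounds 136 to 195) in control and 205 FPKM (bounds 168 to 241) with BMH-21. Its log2 difference of 0.31 ± 0.37 stayed within the half-width, and the ratio of 1.24 had a range of 0.958 to 1.60. BCL2L1, the gene of BCL-XL, was at 19.1 FPKM (bounds 15.5 to 22.7) in control and 18.5 FPKM (bounds 14.9 to 22.0) with BMH-21. Its ratio of 0.966 had a range of 0.736 to 1.27, so a change of 2-fold in either direction lay outside the range.

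BCL2, the founding member of the family, was low. It was at 1.92 FPKM (bounds 1.12 to 2.71) in control and 1.57 FPKM (bounds 0.997 to 2.15) with BMH-21, and its ratio of 0.819 ranged from 0.457 to 1.47. BCL2A1, which encodes the guard protein BFL-1, was at 0.674 FPKM (bounds 0.348 to 0.999) and 0.644 FPKM (bounds 0.317 to 0.970). The bounds of BCL2A1 extended by 48.3% of its control estimate and those of BCL2 by 41.4%, against 17.9% for MCL1, so changes of these low transcripts were the least well resolved. MITF was at 8.06 FPKM in control and 5.31 FPKM with BMH-21, with separate intervals that were only 0.0232 FPKM apart. BCL2L1, MCL1 and BCL2L11 are known to be spliced into forms of different or opposite function, and the gene rows do not tell these forms apart.

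**Figure D2:**
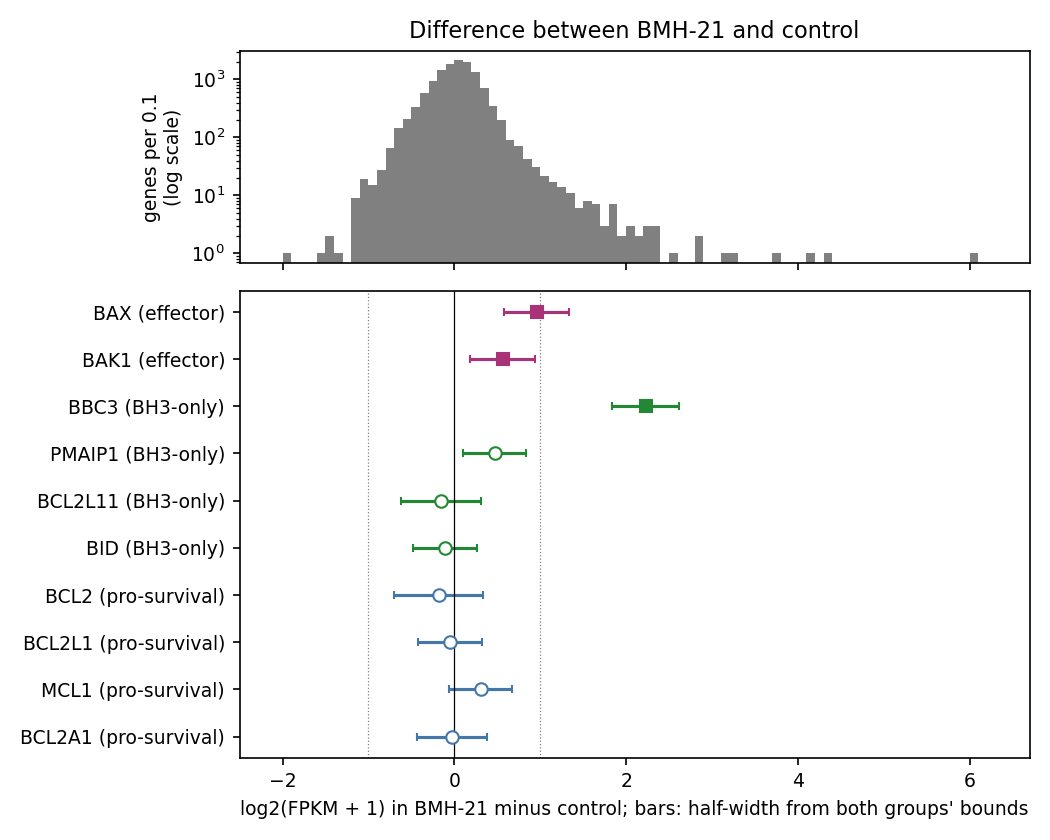
Top, log2(FPKM + 1) in BMH-21 minus control for the 12758 measured genes other than short RNAs, as a histogram with a log count axis; bottom, the same difference for the 10 members, with half-widths combined from both groups' bounds, filled squares for separate and open circles for overlapping intervals, and dotted lines at 2-fold. BBC3 lies in the right tail at 2.23, BAX near the upper dotted line at 0.96, and the 4 pro-survival members between -0.18 and 0.31.

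Because FPKM is a level per length, the members were also set against each other within each group. MCL1 made up 55.3% of the summed level of the 10 members in control and 47.5% with BMH-21, and within the pro-survival genes it made up 88.4% and 90.8%. Effectors accounted for 24.3% of the sum in control and 31.7% with BMH-21, and BH3-only genes for 13.2% and 16.05%. The sum itself was 299 FPKM in control and 431 FPKM with BMH-21, and BAX and MCL1 contributed 58.1 FPKM and 39.4 FPKM to that difference. The summed effector and BH3-only level stood at 0.598 of the pro-survival level in control (range 0.491 to 0.727) and at 0.914 with BMH-21 (range 0.750 to 1.11). These ranges, propagated from the bounds as if the errors of the genes were independent, did not overlap, by a narrow margin. Their separation rests on that assumption and on the choice of genes, neither of which was tested. Measured family genes outside the members were left out of the sums. They include BAD (36.1 FPKM in control and 30.6 FPKM with BMH-21), BOK (4.80 and 3.16), BMF (1.81 and 3.22) and the pro-survival gene BCL2L2 (9.88 and 11.0). The ratio with these genes was not computed.

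BAX was 3.16 times BCL2L1 in control (range 2.41 to 4.15) and 6.42 times with BMH-21 (range 4.92 to 8.37), which did not overlap. Against MCL1, the bulk of the pro-survival level, BAX stood at 0.365 (range 0.280 to 0.477) and 0.579 (range 0.448 to 0.748), whose ranges overlapped. The ratio of BAX to BCL2 was 31.4 (range 19.4 to 50.9) and 75.3 (range 49.3 to 115), whose ranges met. MCL1 exceeded BBC3 30.8 times in control (range 22.8 to 41.6) and 7.12 times with BMH-21 (range 5.47 to 9.26). Against PMAIP1, its known partner, MCL1 was 8.51 times higher (range 6.52 to 11.1) and 7.51 times higher (range 5.80 to 9.74). The level of MCL1 over BBC3 therefore differed between the groups beyond the bounds and that over PMAIP1 did not. These ranges, too, treat the errors of the genes as independent, which was not tested. The ratios are of transcripts, and the proteins were not measured.

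**Figure D3:**
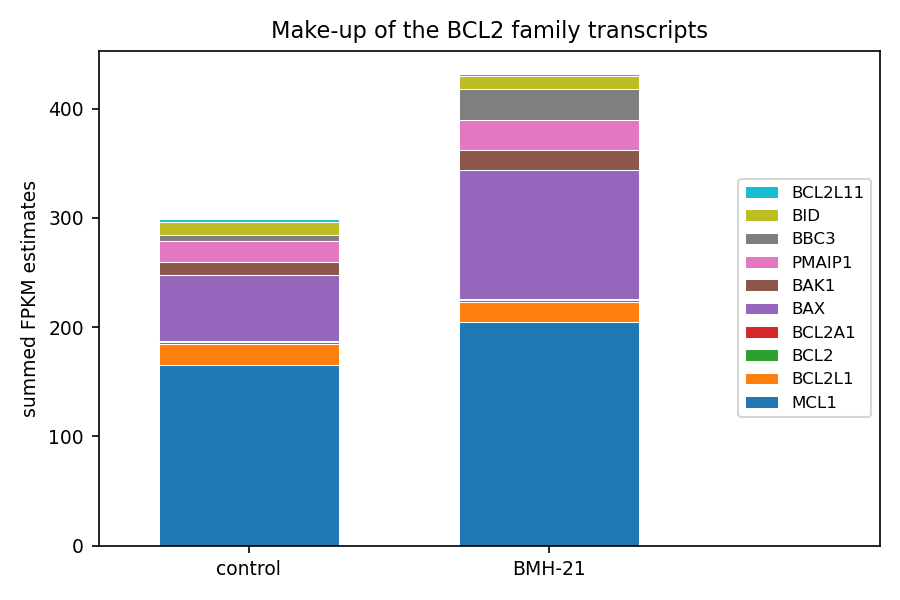
Summed FPKM estimates of the 10 members in control and BMH-21, stacked by gene from MCL1 at the base. MCL1 is the largest block in both bars (165 and 205 FPKM), and the BAX block is 60.4 FPKM tall in control and 118 FPKM with BMH-21.

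Promoter windows from RefSeq (GRCh38.p14, 250 bases before to 50 after a start site) were read for the members with separate intervals, to show the sequence around the starts of the genes that stood apart. Windows were listed for 9 members, all except MCL1. Capitals mark matches, on either strand, to the E-box letters CACGTG, which MYC and MITF family factors can bind, or to the p53 half-site. The letters CACGTG were chosen after the windows had been seen. The BAX window on chromosome 19 held CACGTG 4 times, against 7.26% of all 35116 windows with at least 1 match. BBC3, also on chromosome 19, held it once near the far end of its window. BAK1 on chromosome 6 held 1 p53 half-site, whose last base lay 64 bases before the start site, while 6.63% of all windows held such a match. The capitals of 1 match did not run into those of another. A match is a description of letters, not of a bound factor, and sites outside these windows, or at other start sites of the genes, were not searched.
BAX promoter, chr19:48954625-48954924, plus strand: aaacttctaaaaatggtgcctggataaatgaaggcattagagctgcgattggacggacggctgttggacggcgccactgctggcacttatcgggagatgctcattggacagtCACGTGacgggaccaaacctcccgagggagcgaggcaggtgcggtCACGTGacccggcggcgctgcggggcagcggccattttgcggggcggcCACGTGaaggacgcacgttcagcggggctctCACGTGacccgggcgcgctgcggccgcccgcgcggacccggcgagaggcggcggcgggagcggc
BBC3 promoter, chr19:47232618-47232917, minus strand: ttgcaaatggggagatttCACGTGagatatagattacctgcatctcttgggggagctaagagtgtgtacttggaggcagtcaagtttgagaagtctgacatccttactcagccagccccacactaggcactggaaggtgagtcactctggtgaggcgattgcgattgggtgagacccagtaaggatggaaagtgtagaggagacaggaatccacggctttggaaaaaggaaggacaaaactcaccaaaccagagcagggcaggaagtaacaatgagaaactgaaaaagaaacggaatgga
BAK1 promoter, chr6:33580227-33580526, minus strand: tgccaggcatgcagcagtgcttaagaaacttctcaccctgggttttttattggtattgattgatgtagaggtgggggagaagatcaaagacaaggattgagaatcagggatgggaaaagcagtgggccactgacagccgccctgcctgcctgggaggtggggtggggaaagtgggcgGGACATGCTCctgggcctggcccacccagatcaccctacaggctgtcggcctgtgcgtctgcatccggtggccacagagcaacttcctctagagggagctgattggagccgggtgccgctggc

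Of the other windows, those of PMAIP1, BCL2L11, BCL2, BCL2L1 and BCL2A1 held neither motif. CACGTG was found in 2 of the 5 windows of BID, which overlap each other and hold the same site. The GC box letters GGGCGG, searched on both strands, were in 44.95% of all windows, and PMAIP1 held 4 matches, BCL2L11 3, BAX 2 and BAK1 2, of which 1 shared its last base with the p53 half-site, while BBC3 and BCL2 held 0. GC content was 67.3% for BAX, 71.3% for PMAIP1 and 70.7% for BCL2, against 48.0% for BBC3 and 58.7% for BAK1, and the median of all windows was 58.7%. The windows of the 3 members with separate intervals, from 48.0% to 67.3%, lay within the range of the other members' windows, from 41.0% for BCL2A1 to 78.0% for a window of BID.

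Other genes of the family were described from a list outside the 10 members. Of 16 listed, 11 were measured, of which 1 was higher with separate intervals, 0 were lower and 10 overlapped. Over all measured genes, 3.58% were higher and 3.14% lower. The median log2 difference of the list was 0.11. BMF, a BH3-only gene whose protein binds the dynein light chain DYNLL2, was the higher one, at 1.81 FPKM (bounds 1.40 to 2.21) in control and 3.22 FPKM (bounds 2.55 to 3.89) with BMH-21. BCL2L12 was at 13.8 FPKM and 15.9 FPKM, and BNIP2 at 42.5 FPKM and 48.4 FPKM. At the low end BOK, a relative of BAX and BAK1, was at 4.80 FPKM (bounds 3.76 to 5.83) and 3.16 FPKM (bounds 2.45 to 3.88), an overlap although its log2 difference of -0.48 ± 0.36 was larger than the half-width. The BH3-only gene BAD was at 36.1 FPKM and 30.6 FPKM and the mitophagy receptor gene BNIP3L at 20.5 FPKM and 18.3 FPKM. BCL2L2, which encodes the guard protein BCL-W, was at 9.88 FPKM (bounds 5.96 to 13.8) and 11.0 FPKM (bounds 7.28 to 14.8). BCL2L2 shares sequence with the readthrough gene BCL2L2-PABPN1, listed at 34.2 FPKM and 30.4 FPKM, so the split between these rows is uncertain.

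Downstream of the mitochondrial pore, 1 of 17 measured genes was higher with separate intervals, 0 were lower and 16 overlapped. Over all measured genes, 3.58% were higher and 3.14% lower. The median of the list was 0.17. The higher gene of the list was APAF1, the scaffold of the apoptosome and a known p53 target. It was at 6.10 FPKM (bounds 4.90 to 7.30) in control and 10.2 FPKM (bounds 8.30 to 12.2) with BMH-21. The initiator CASP8 was at 10.8 FPKM and 14.4 FPKM, a log2 difference of 0.38 ± 0.37. HTRA2, a protease that antagonizes caspase inhibitors, was at 16.5 FPKM (bounds 5.50 to 27.4) and 12.7 FPKM (bounds 3.79 to 21.7), and ENDOG, a mitochondrial nuclease, at 6.17 FPKM (bounds 1.48 to 10.9) and 4.99 FPKM (bounds 0.661 to 9.32). The bounds of both were too wide to place a change. The initiator CASP9 was at 5.07 FPKM and 4.28 FPKM.

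Of 17 measured genes whose products act on the member proteins, 1 was higher, 1 was lower and 15 overlapped, with a median of 0.10. With 1 gene in each direction, the list did not stand out from the 3.58% and 3.14% of all measured genes. FBXW7, a ubiquitin ligase subunit that can target MCL1, was at 5.70 FPKM (bounds 4.58 to 6.81) in control and 11.5 FPKM (bounds 9.33 to 13.6) with BMH-21. PIM1, a kinase that phosphorylates BAD, was at 6.80 FPKM (bounds 5.37 to 8.23) and 2.67 FPKM (bounds 2.02 to 3.32), a log2 difference of -1.09 ± 0.37. DYNLL1, a dynein light chain that binds BIM, was at 246 FPKM and 340 FPKM, and YWHAZ, a 14-3-3 protein that holds phosphorylated BAD, at 269 FPKM and 362 FPKM. The differences of both were larger than their half-widths though the intervals overlapped. GSK3B, a kinase that primes MCL1 for destruction, was at 33.1 FPKM and 23.8 FPKM, also overlapping (-0.46 ± 0.36), and AKT1, another kinase of BAD, at 48.0 FPKM and 42.4 FPKM.

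Of 19 measured transcription factors known to act on the member genes, 1 was higher with separate intervals, 3 were lower and 15 overlapped. Over all measured genes, 3.58% were higher and 3.14% lower. The median of the list was -0.19. ATF3, a stress-induced factor, was 8.44-fold higher, at 1.72 FPKM (bounds 1.23 to 2.22) in control and 14.6 FPKM (bounds 11.5 to 17.6) with BMH-21. E2F1, which drives S-phase genes, was at 21.3 FPKM in control and 12.4 FPKM with BMH-21, and MYC at 6.32 FPKM and 3.61 FPKM, both separate like MITF. TP73, the p53 relative, was at 2.94 FPKM (bounds 1.94 to 3.93) and 1.51 FPKM (bounds 0.925 to 2.103), which overlapped, although its log2 difference of -0.65 ± 0.51 was larger than the half-width. SRF was at 8.96 FPKM and 11.2 FPKM, and HIF1A, the hypoxia factor, at 82.4 FPKM and 98.3 FPKM, both overlapping.

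For size, the family was set beside 12 other p53 targets, a list chosen with earlier results of these data known. All 12 were higher with separate intervals and by at least 2-fold, against 3.58% and 0.917% of all measured genes. Their median log2 difference was 1.89. CDKN1A, the gene of the cell cycle inhibitor p21, had a ratio of 9.81 (range 7.54 to 12.7) and MDM2, the gene of the ligase that degrades p53, 9.12 (range 7.05 to 11.8). GDF15, a stress cytokine gene, led the list at 24.3 (range 14.2 to 41.7). The range of BBC3 (3.95 to 7.29) ended below those of CDKN1A and GDF15 and met that of MDM2. The ranges of BAX (1.503 to 2.56) and BAK1 (1.15 to 2.01) ended well below. The death receptor genes FAS (5.49, range 3.77 to 7.999) and TNFRSF10B (3.07, range 2.31 to 4.07) had ratios whose ranges overlapped that of BBC3. A further death receptor gene, TNFRSF10A (2.68, range 2.01 to 3.57), had a range that ended below that of BBC3. Among targets that are not death receptors, BTG2 (range 6.64 to 11.9), SESN2 (2.90 to 5.16), TP53INP1 (3.66 to 6.53) and TIGAR (3.62 to 6.23) overlapped BBC3 as well. FDXR, a mitochondrial reductase gene with the smallest log2 difference of the list, had a ratio of 2.22 (range 1.67 to 2.95), whose range overlapped that of BAX. The ranges of AEN (2.14, range 1.65 to 2.78), TNFRSF10A and TNFRSF10B overlapped that of BAX too.

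**Figure D4:**
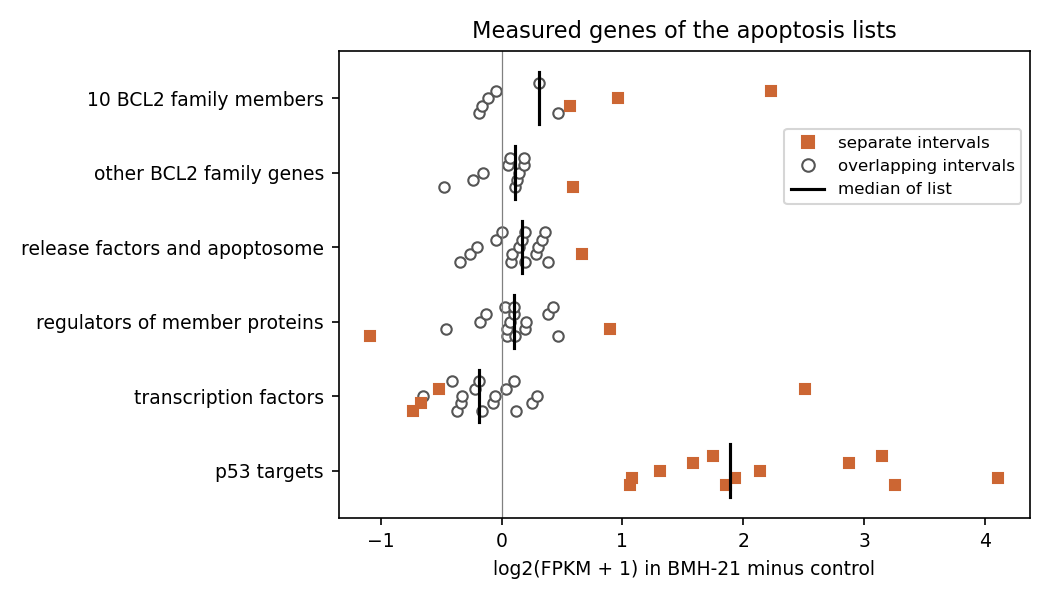
Log2(FPKM + 1) in BMH-21 minus control for the measured genes of 6 lists, with orange squares for separate and open circles for overlapping intervals and a black line at each median. The p53 targets lie between 1.07 and 4.11, whereas most points of the other lists lie between -0.5 and 0.5, with BBC3 at 2.23 and ATF3 at 2.51 apart.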

How the data were processed

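RNA was extracted from A375 cells with Trizol and made into stranded total RNA libraries with an Illumina kit, per the labels' protocols. The authors deposited 1 table of FPKM values. TopHat2, Cuffdiff 2.0 and the build GRCh37 appear in the submitters' processing notes without roles or settings. Neither the annotation nor the use of strand in counting is stated there. No read totals can be recovered from FPKM. In control, 16203 of 16213 rows with all values above 0 had the first column midway between its companions, within a relative tolerance of 0.0001, and with BMH-21 15872 of 15881 had. No test was therefore made. The limma fit foreseen for columns that are libraries was not run.

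Differences are of log2(FPKM + 1), which understates changes of low genes, while ratios are of FPKM estimates without a pseudocount. Half-widths are root summed squares of both groups' log2 half-widths, and ranges of ratios of single genes were made the same way without the pseudocount. For the ratio of summed levels, the FPKM half-widths of the genes in a sum were combined as root summed squares and divided by that sum. The relative half-widths of both sums were then combined likewise and put on the log2 scale. Measured means at least 1 FPKM in at least 1 group. The 316 measured rows of short RNAs, recognized by symbol, were left out of the background, and 11 measured rows with estimates outside their bounds were never called separate. All calculations were done in Python 3.11.15 with pandas 2.3.3. The call of separate intervals and the log2 difference without a pseudocount were checked on simulated data. Half-widths, ranges, sums and motif searches were not checked in this way. The members and lists were chosen with earlier results of these data known. Named genes are all members, and per list other than the cell type markers those with separate intervals and the 3 highest and 3 lowest. SOX10, S100B, DCN, KRT14 and BCL2L2 were named after their values were seen. A gene that this rule names is not reported here. TIGAR was matched through its older symbol C12orf5. Alternatives were other pseudocounts, minimums, scalings and a looser call. Protein sequences were not used here.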

Additional observations from a re-analysis of the deposited data

How the results depend on the processing

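No paired analysis was possible because the columns hold an estimate and its bounds rather than libraries, and for the same reason no replicate could be left out. Across a pseudocount of 0.1, median, upper-quartile and short-RNA-free scaling, and minimums of 5 FPKM or none, the log2 differences of the members, where measured, moved by less than their half-widths, and the members with separate intervals numbered 3 or 2 higher and 0 lower. Of these settings the minimums do not change a log2 difference, and the scalings shift it by far less than the members' half-widths. Only the pseudocount could therefore have moved a difference by that much. Only the scalings could turn separate intervals into overlapping ones, since the pseudocount and the minimum do not enter that comparison. The 2 came from upper-quartile and short-RNA-free scaling, under which BAK1 overlapped. Those scalings shift all log2 values of BMH-21 by -0.07 and -0.06 and turn the split of all measured genes with separate intervals from 457 higher and 400 lower into 348 and 528, or 351 and 517. Under each of them 1 other BCL2 family gene and 2 regulators of member proteins were lower. With a minimum of 5 FPKM, 0 other BCL2 family genes were higher, since BMF lies under it. Of all genes measured at that minimum, 305 were higher and 244 lower, since fewer were counted. Calling any difference beyond its half-width gave 4 members higher, PMAIP1 being added, and 917 higher and 901 lower genes in all. It gave 2 apoptosome genes and 3 regulators higher, and 1 other BCL2 family gene, 2 regulators and 5 transcription factors lower.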

Other observations

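Annotated genes overlap several members, and the use of strand in counting is not stated. MIR3190, a microRNA hairpin on the strand opposite to BBC3 that lies in an intron of 4 of its 6 annotated transcripts and in an exon of 1 (GENCODE release 29), was listed at 0 FPKM in control and at 73.5 FPKM (bounds 71.4 to 75.7) with BMH-21. MIR3191, on the BBC3 strand at the same place, was listed at 0 in both groups. FPKM values of RNAs shorter than a library fragment are unreliable, and the relation of this row to BBC3 was not tested. GGNBP1, opposite to BAK1, was at 0.0443 FPKM and 0.00646 FPKM, and no annotated gene overlapped BAX, PMAIP1 or BCL2A1.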
